A study of Mus musculus with 3 samples.

Results

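The genes described here are the 10 MHC class I presentation genes H2-K1, H2-D1, B2m, H2-T22, H2-T23, Tap1, Tap2, Tapbp, Psmb8 and Psmb9. The members were chosen by a rule that lists them by name without using their values, and all 10 were among the 11979 genes listed in all 3 count tables. They were followed in single-cell RNA libraries from adult mouse brains, which were digested with enzymes and sorted for CD11b and CD45. That sort collects microglia, macrophages that live in the brain tissue itself, and other myeloid cells. An MHC class II-deficient mouse gave 1 library (the deficient library), and wild type mice gave 2 (WT 1 and WT 2). The deficient animal is labelled as having almost no CD4 T cells, the cells that recognise peptides on class II molecules. The allele that removes class II, the strain background, the sex and the exact age were not stated in the labels. The series asks how microglia differ without CD4 T cells. Since the deficient group had 1 library, no spread between deficient animals was measured, and its values are set against the spread of the WT pair.

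MHC class I molecules show peptides from inside the cell to CD8 T cells and natural killer cells, and most nucleated cells carry them. The proteasome cuts proteins into peptides, with Psmb8 and Psmb9 as the inducible catalytic subunits of the immunoproteasome. The Tap1-Tap2 transporter moves the peptides into the endoplasmic reticulum, where tapasin (Tapbp) holds an empty class I molecule beside the transporter. H2-K1 and H2-D1 encode the classical heavy chains, H2-T23 (Qa-1) and H2-T22 encode nonclassical ones, and B2m is the light chain. Interferons are known to raise the pathway in many cell types, and resting microglia are known for low class I levels.

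In the GENCODE release 21 mouse annotation on mm10, 9 of the 10 genes lie on chromosome 17 within 2127 kb. In chromosomal order they are Tapbp (chr17:33915899-33929292), H2-K1 (chr17:33996017-34000347), Psmb9 (chr17:34181987-34187764), Tap1 (chr17:34187553-34197225), Psmb8 (chr17:34197721-34201454), Tap2 (chr17:34203527-34216321), H2-D1 (chr17:35262730-35267499), H2-T23 (chr17:36029773-36032855) and H2-T22 (chr17:36037128-36042747). Psmb9, Tap1, Psmb8 and Tap2 sit side by side within 34.3 kb, and H2-T23 and H2-T22 adjoin each other. B2m lies apart on chromosome 2 (chr2:122147686-122153083). H2-K1, Psmb9, H2-T23 and H2-T22 are read from the minus strand and the other members from the plus strand.

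The promoter sequences below are shown because the members differed in 2 ways, by interferon content of the cell and, for H2-T23 and H2-T22, by library. RefSeq promoter windows (GRCm38.p6, 250 bases before to 50 after the start site) were on hand for 9 members, Tap2 being the exception. Both strands were searched for the core of an interferon response element (GAAA on either side of any 2 bases), for its shorter form GAANNGAAA, for a palindromic kappa B site and for the gamma-activated site TTCNNNGAA. The shorter form was chosen after the sequences were seen. Capitals mark the matches, each sequence is written 5′ to 3′ on the gene's own strand, and overlapping matches of the first pair of motifs are possible.
H2-K1 (chr17:34000409-34000488, minus strand): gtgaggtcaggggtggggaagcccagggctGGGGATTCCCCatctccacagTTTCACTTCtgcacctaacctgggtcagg
H2-D1 (chr17:35262923-35262952, plus strand): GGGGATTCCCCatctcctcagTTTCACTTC
B2m (chr2:122147513-122147592, plus strand): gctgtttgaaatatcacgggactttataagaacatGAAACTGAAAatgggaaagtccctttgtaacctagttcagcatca
H2-T23 (chr17:36032806-36032835, minus strand): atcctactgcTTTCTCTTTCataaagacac
H2-T22 (chr17:36042899-36042958, minus strand): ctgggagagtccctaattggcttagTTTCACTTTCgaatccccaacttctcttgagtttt

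H2-K1 and H2-D1, the classical heavy chain genes, carried the kappa B letters followed by the shorter interferon core, beginning 111 and 171 bases before their start sites. Over 80 bases aligned at the kappa B match, both promoters were identical at 79. The kappa B letters stood in 0.0304% of all 32851 promoter windows and the shorter core in 7.52%. B2m, H2-T23 and H2-T22 carried the full interferon core, which stood in 3.44% of all windows and in 18 of 29 windows of the interferon genes used here to score cells. Among the other members, the Psmb8 window held a gamma-activated site (8.30% of all windows), and the Tapbp, Tap1 and Psmb9 windows held none of the 4 motifs. The Tap1 and Psmb9 start sites lie 226 bases apart on opposite strands, so their windows overlap by 275 bases. A match is a description of letters, not a site shown to be bound. GENCODE annotates longer first exons of H2-D1 and H2-T23 that reach these letters. The RefSeq start sites used for Tapbp, Psmb9 and Psmb8 also differ from the GENCODE gene starts. They lie at chr17:33919478 against 33915899 for Tapbp, 34187330 against 34187764 for Psmb9 and 34198195 against 34197721 for Psmb8. Windows set on those GENCODE starts were not searched.

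After filtering, 2257 deficient cells, 4340 WT 1 cells and 4667 WT 2 cells were kept, with median depths of 2824, 3384.5 and 3338 UMIs (unique molecular identifiers, 1 per captured RNA molecule). Microglia-like cells, called by UMIs of microglial markers such as P2ry12 and Tmem119, made up 96.4% of deficient cells, against 89.4% and 93.9% of WT 1 and WT 2 cells. Neutrophil-like cells numbered 17, against 276 and 137, monocyte-like cells 20, against 54 and 40, and border macrophage-like cells 8, against 34 and 29. The microglia-like cells of the deficient library stood apart in a clustering made without class I genes: of 18 clusters, clusters 2 and 9 held 1573 and 343 deficient cells, against 44 and 1 WT 1 cells and 123 and 13 WT 2 cells. Immediate early and dissociation stress genes, all 30 of which were detected, summed to 10237 CPM (UMIs per 1000000 UMIs of the summed cells) in deficient microglia-like cells, against 27200 and 18926 CPM in WT. Neutrophil markers in microglia-like cells summed to 256 CPM (12 of 14 above 0), against 1461 and 862 CPM (14 of 14 in each). Of the 16 T, NK and B cell markers only 2 were listed in the deficient count table, against 5 and 4 in WT 1 and WT 2, and Cd3e was listed in none. A gene missing from a table has no count there, and the rule that left it out was not stated in the labels. The tables listed 12077 genes (deficient), 13770 (WT 1) and 13695 (WT 2), so these numbers do not compare the libraries. In microglia-like cells the listed markers summed to 338 CPM, against 365 and 340 CPM. The part of these differences in the results on genotype was not tested. Libraries shared 13 to 30 cell barcodes pairwise.

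In microglia-like cells B2m was by far the most abundant of the 10 genes and H2-T22 the least. The kit counts 1 tag at the 3′ end of each molecule, so levels in CPM can be set beside each other without division by gene length. B2m stood at 3544 CPM in deficient cells, against 3048 and 3179 CPM in WT 1 and WT 2, and alone gave 64.2% of all member UMIs, against 60.5% and 60.4%. H2-D1 followed with 772 CPM, against 752 and 831 CPM. H2-K1 stood at 408 CPM, against 429 and 419 CPM. The H2-D1 values of the libraries overlap, while the deficient H2-K1 value lies just under the WT pair. Summed over the 10 genes the level was 5517 CPM, against 5042 and 5266 CPM.

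The peptide supply genes were the middle of the order. Psmb8 stood at 248 CPM in deficient cells, against 217 and 234 CPM in WT. Tapbp stood at 224 CPM, against 206 and 202 CPM. Tap2 and Psmb9 had the same 103 CPM in the deficient library, against 106 and 99.1 CPM for Tap2 and 84.8 and 86.0 CPM for Psmb9. Tap1 was lower than its partner Tap2 in every library, with 40.2 CPM, against 39.7 and 37.1 CPM. The nonclassical H2-T23 stood at 56.4 CPM, against 129 and 145 CPM, and H2-T22 at 18.4 CPM, against 30.3 and 34.5 CPM. Neighbours in the order had overlapping 95% counting intervals (exact Poisson, counting error only) in 1 case per library, Tap2 and Psmb9 in the deficient library, Psmb8 and Tapbp in WT 1, and Tap1 and H2-T22 in WT 2. H2-T23 ranked below Tap2 and Psmb9 in the deficient library and above both in WT.

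**Figure D1:**
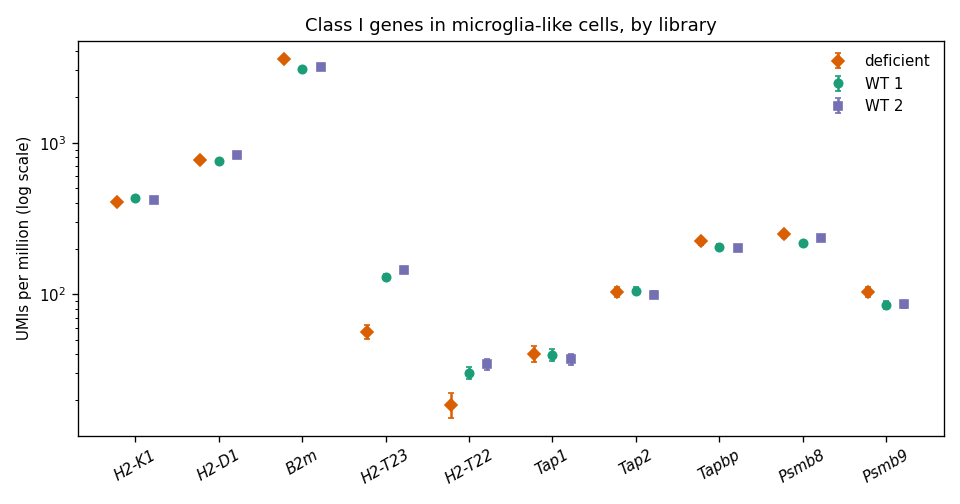
CPM (log scale) of the 10 class I genes in microglia-like cells of the deficient library (diamonds), WT 1 (circles) and WT 2 (squares), with exact 95% Poisson intervals that cover counting error only. H2-T23 and H2-T22 are the genes whose deficient value lies well below both WT values, at 56.4 and 18.4 CPM.

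Deficient microglia-like cells held less H2-T23 and H2-T22 than WT cells, while none of the other 8 genes passed the test. H2-T23, the ligand of the inhibitory receptor pair CD94-NKG2 on natural killer cells, fell by 1.27 on the log2 scale (SE 0.11, adjusted p = 4.26e-07, edgeR). H2-T22, a ligand of some gamma delta T cells, fell by 0.80 (SE 0.15, adjusted p = 0.00153). With DESeq2 the H2-T22 call was lost (adjusted p = 0.0664), while H2-T23 passed (adjusted p = 2.01e-11). Members passing the test thus numbered 0 higher and 2 lower of 10, beside 1.79% higher and 6.90% lower of all 11869 genes tested. The median log2 fold change was 0.05 over the members and -0.00 over all genes tested.

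The other 8 class I genes did not pass between the genotypes. Psmb9 came nearest to the threshold, at 0.28 on the log2 scale (SE 0.09, adjusted p = 0.0678). B2m was at 0.19 (SE 0.13), Psmb8 at 0.15 (SE 0.10), Tapbp at 0.14 (SE 0.09), Tap1 at 0.08 (SE 0.12), Tap2 at 0.02 (SE 0.09), H2-D1 at -0.03 (SE 0.12) and H2-K1 at -0.05 (SE 0.10), with adjusted p from 0.442 to 0.931. A miss of the threshold does not show that levels were the same, and with 1 deficient library only the WT pair measures spread. Over all retained cells, with no class rule, H2-T23 at -1.27 (SE 0.10, adjusted p = 0.000656) and H2-T22 at -0.71 (SE 0.13, adjusted p = 0.0218) again were the called members, beside 5.96% of 11974 genes lower.

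The lower H2-T23 level was present at each interferon content of the cell. In microglia-like cells with no interferon gene UMI it stood at 54.8 CPM in the deficient library, against 120 and 136 CPM in WT. In the cells with most interferon genes it stood at 101 CPM, against 276 and 320 CPM. In a fit restricted to the cells without interferon UMIs, the log2 fold change was -1.22 for H2-T23 (adjusted p = 2.55e-10) and -0.88 for H2-T22 (adjusted p = 0.000594). In other cell classes counts were small. H2-T23 had 1 UMI in 17 deficient neutrophil-like cells (20.6 CPM), against 64.6 and 87.1 CPM in WT. In monocyte-like cells it stood at 194 CPM (14 UMIs), against 226 and 279 CPM. In border macrophage-like cells it stood at 142 CPM (4 UMIs), between the WT values of 253 and 114 CPM. H2-T22 in monocyte-like cells was not low, with 208 CPM (15 UMIs), against 99.5 and 136 CPM.

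H2-T22 shares much of its 3′ end with another gene. Of the 60-base words in its last 400 transcript bases, 56.3% also occur in H2-T10, so reads of these genes may be split or dropped, and the H2-T22 values are uncertain in that respect. H2-T23 shared 28.7% of such words with other genes, H2-K1 5.34% (4.74% with H2-D1) and H2-D1 4.04%, and B2m, Tap2, Psmb8 and Psmb9 shared none. An antisense gene, A930015D03Rik, overlaps both H2-T23 and H2-T22, Psmb9 overlaps Tap1 and Patl2 overlaps B2m on the opposite strand, and Zbtb22 overlaps Tapbp on the same strand. How shared and antisense reads were counted was not stated in the labels.

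Genes beyond H2-T22 on chromosome 17 also differed between the libraries. They were noticed after their values were seen, so they are given as a description. Of the 10 genes tested that start 0.5 to 1.5 Mb beyond H2-T23, 6 were higher in deficient microglia-like cells and 0 lower, with a median log2 fold change of 0.81. Trim26, a TRIM family ubiquitin ligase, stood at 179.9 CPM, against 96.2 and 96.1 CPM (log2 fold change 0.91, SE 0.09, adjusted p = 1.33e-06). Gabbr1, a GABA-B receptor subunit, stood at 126 CPM, against 73.2 and 70.1 CPM (0.82, SE 0.09, adjusted p = 4.64e-06). Ppp1r11, Znrd1, Znrd1as and Olfr107 were the others. Within 0.5 Mb of H2-T23 on either side, 1 gene was higher and 5 were lower of 25 tested, H2-T23 and H2-T22 included. From 0.5 to 1.5 Mb before it, where H2-D1 lies, 0 were higher and 1 was lower of 55. From 1.5 to 2.5 Mb before it, where the other 6 members of the chromosome lie, 1 was higher and 3 were lower of 38. On the other chromosomes 8.63% of 11107 genes passed in either direction. Of the listed class II region genes, the 4 that adjoin a member did not pass, with log2 fold changes of 0.39 for H2-Ob beside Tap2 (SE 0.13, adjusted p = 0.0780), 0.07 for H2-DMb1 beside Psmb9, 0.17 for Daxx beside Tapbp and 0.16 for Vps52 beside H2-K1. Zbtb22, which overlaps Tapbp, is not on that list and was chosen after its values were seen, fell by 0.74 (SE 0.20, adjusted p = 0.0234). The list held 20 genes of or near the class II region and of class II presentation, of which 16 were tested. H2-Oa was higher and Brd2 and Notch4 were lower. The Notch4 call was lost with RLE scaling, DESeq2, thinning, a stricter cell filter or doubled class minima and in cells of low interferon content alone, the H2-Oa call with DESeq2 and the Brd2 call with doubled class minima. Cd74, the class II invariant chain, which lies on another chromosome, was lower too (log2 fold change -1.81, SE 0.17, adjusted p = 1.06e-06), a call lost with Leiden clusters.

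**Figure D2:**
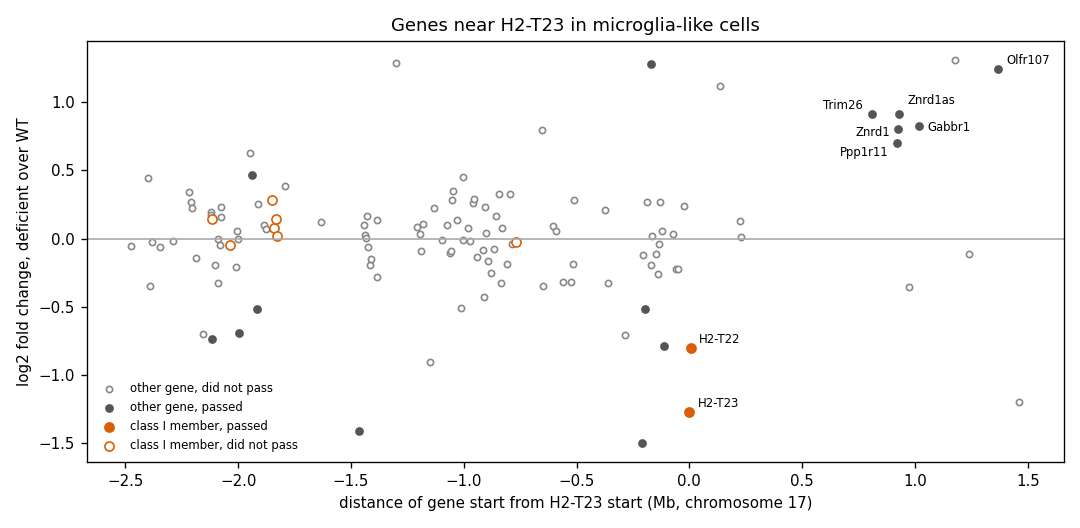
Log2 fold change, deficient over WT, of genes tested in microglia-like cells, by the distance of their start from that of H2-T23 on chromosome 17 in Mb; filled points passed the test and orange points are class I members. H2-T23 (-1.27) and H2-T22 (-0.80) lie below 0, and the 6 filled genes beyond 0.5 Mb lie above it.

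Of 35 other genes of the class I pathway, 30 could be tested between genotypes in microglia-like cells, and 1 rose and 1 fell. Over all 11869 genes tested, 1.79% were higher and 6.90% lower. Rfxap, a subunit of the RFX complex that binds class I and class II promoters, fell by 1.15 (SE 0.19, adjusted p = 0.000440), with 8.51 CPM in deficient cells, against 20.3 and 17.8 CPM in WT. The deficient Rfxap value lies below both WT values. With DESeq2, and after thinning, 0 of these genes rose and 1 fell. Nlrc5, the transactivator of class I genes, was near the detection limit with 13 UMIs (2.05 CPM), against 19 and 9 UMIs (1.37 and 0.574 CPM), and did not pass (adjusted p = 0.319). Irf1 was at -0.26 (SE 0.14), and the constitutive proteasome subunits that Psmb8 and Psmb9 replace or accompany were at -0.01 (Psmb5), 0.05 (Psmb6) and -0.05 (Psmb7), with no call.

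The next comparison asks how class I levels go with the interferon gene content of a cell. Each microglia-like cell was thinned to 1000 UMIs, which left out 40 deficient, 57 WT 1 and 59 WT 2 cells. Cells were binned by their UMIs of 34 interferon genes, a list with no class I gene, at 0, 1, 2 to 3 and 4 or more. The bins held 1275, 617, 212 and 32 cells of the deficient library, 2372, 1067, 338 and 46 cells of WT 1 and 2779, 1157, 345 and 41 cells of WT 2. Levels were then taken from the unthinned UMIs. The list as a whole stood at 574 CPM in deficient microglia-like cells, against 527 and 492 CPM in WT.

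Microglia-like cells rich in interferon genes held more class I RNA. Summed over the 10 genes, the level went with the bins in order, at 5374, 5530, 6009 and 8131 CPM in the deficient library, at 4962, 5066, 5257 and 7452 CPM in WT 1 and at 5161, 5280, 5812 and 7632 CPM in WT 2. The top bin was the highest in all 3 libraries. Between the top bin and the cells with 0 interferon UMIs, 7 of the 10 members rose and 0 fell, beside 1.14% higher and 0.128% lower of 9389 genes tested. The median log2 fold change was 0.63 over the members and -0.07 over all genes tested.

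Tap1, the transporter subunit, showed the steepest difference of the 10, although from few UMIs. It stood at 78.7 CPM in interferon-high deficient cells and 36.6 CPM in interferon-low ones, at 118 and 35.9 CPM in WT 1 and at 128 and 34.5 CPM in WT 2. High and low groups did not overlap, and the log2 fold change was 1.61 (SE 0.30, adjusted p = 8.85e-06). Tap2, its partner, stood at 78.7 CPM in interferon-high and 104 CPM in interferon-low cells of the deficient library. The high value rests on 7 UMIs, and its interval of 31.7 to 162 CPM holds the low value. Tap2 stood at 138 and 102 CPM in WT 1 and at 170.4 and 101 CPM in WT 2 (log2 fold change 0.35, SE 0.23, adjusted p = 0.918). Tapbp stood at 191 (17 UMIs) and 219 CPM in the deficient library, at 217 and 205 CPM in WT 1 and at 277 and 202 CPM in WT 2 (0.12, SE 0.17, adjusted p = 0.997).

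Both immunoproteasome subunits, B2m and the heavy chains other than H2-T22 were higher in interferon-high than interferon-low cells. From the lowest bin to the highest, H2-D1 and B2m rose at each step in every library, while the others did not. H2-K1 in WT 1 stood at 430, 419, 403 and 708 CPM, and Psmb9 in WT 2 at 84.1, 88.3, 80.2 and 213 CPM. Psmb9 stood at 202 CPM in interferon-high and 99.2 CPM in interferon-low deficient cells, at 184 and 84.0 CPM in WT 1 and at 213 and 84.1 CPM in WT 2, with no overlap (log2 fold change 1.13, SE 0.21, adjusted p = 6.82e-06). Psmb8 rose less, by 0.52 (SE 0.15, adjusted p = 0.0481), with 315 and 235 CPM, 335 and 213 CPM, and 348 and 231 CPM in the deficient library, WT 1 and WT 2. H2-T23 rose by 1.13 (SE 0.19, adjusted p = 4.14e-07). H2-D1 rose by 0.64 (SE 0.11, adjusted p = 6.36e-07), with 1305 and 743 CPM in deficient, 1351 and 734 CPM in WT 1 and 1037 and 801 CPM in WT 2 cells. H2-K1 rose by 0.62 (SE 0.12, adjusted p = 7.75e-05) and B2m by 0.46 (SE 0.09, adjusted p = 8.39e-05). For B2m the values were 5162 and 3470.3 CPM in deficient, 4061 and 3008 CPM in WT 1 and 4501 and 3128 CPM in WT 2 cells. H2-T22 was at 0.83 (SE 0.42, adjusted p = 0.741) on 4, 10 and 5 UMIs in the top bin of the deficient library, WT 1 and WT 2.

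**Figure D3:**
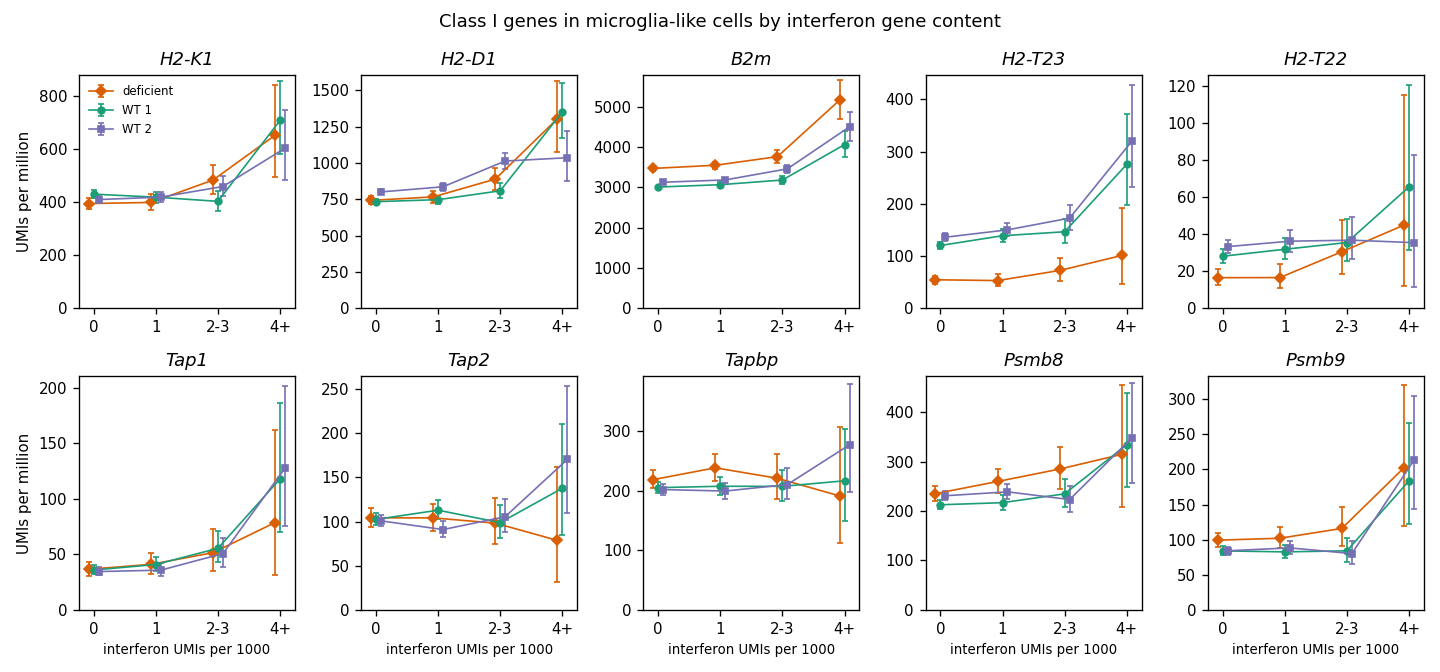
CPM of each class I gene in microglia-like cells, by interferon gene UMIs per 1000 UMIs (0, 1, 2 to 3, 4 or more), for the deficient library, WT 1 and WT 2; bars are exact 95% Poisson intervals of counting error. B2m, Tap1, Psmb9 and H2-T23 are highest in the bin of 4 or more in every library, and H2-T23 of the deficient library lies below both WT libraries in every bin.

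Of the other pathway genes, 4 of 30 tested were higher and 0 lower in interferon-high cells, beside 1.14% higher and 0.128% lower of 9389 genes tested. The count was 2 without WT 1 and 1 without WT 2, without the deficient library or after thinning, and the H2-T24 and Nlrc5 calls were lost in each of these. H2-T24, a further nonclassical class I gene, rose by 1.75 (SE 0.45, adjusted p = 0.00820), with 4, 11 and 7 UMIs in the interferon-high cells of the deficient library, WT 1 and WT 2. Psmb10, the remaining inducible proteasome subunit, rose by 0.69 (SE 0.18, adjusted p = 0.0165). Nlrc5 rose by 3.88 (SE 1.08, adjusted p = 0.0300) on 1, 3 and 1 UMIs in interferon-high cells. Irf1 was at 0.61 (SE 0.25, adjusted p = 0.444), and the constitutive subunits Psmb5, Psmb6 and Psmb7 were at 0.08, -0.15 and 0.08 with no call. Of the class II list, 1 of 14 tested passed, Cd74, which lies outside the region (2.16, SE 0.19, adjusted p = 3.27e-26).

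Whether the interferon difference itself depended on genotype was tested as an interaction. None of 9389 genes passed (0% called), with 237 at an unadjusted p under 0.05 by edgeR. The interaction was -1.07 for Tap2 (SE 0.49) and -0.54 for Tapbp (SE 0.37), both with adjusted p = 0.948. Median depth was 2690.0 UMIs in interferon-high and 2860.0 in interferon-low deficient cells, 3115.5 and 3441.5 in WT 1 and 3155 and 3362 in WT 2. Immediate early genes stood at 6118 and 10952 CPM, 21307 and 28761 CPM, and 23621 and 18695 CPM in the same pairs, and their part was not tested. Without the deficient library, 2 of the 7 calls held, Tap1 (adjusted p = 0.0333) and H2-T23 (adjusted p = 0.0196). B2m lost its call without WT 2 (adjusted p = 0.527), and Psmb8 without WT 1 (adjusted p = 0.647) or WT 2 (adjusted p = 0.545). On thinned counts 0 members passed, and with 6 or more UMIs as the bound of the top bin only Tap1 did.

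Among the cell classes, monocyte-like cells held most class I RNA. Summed over the 10 genes they stood at 17274 CPM in the deficient library, 9921 CPM in WT 1 and 10723 CPM in WT 2, against 5517, 5042 and 5266 CPM in microglia-like cells of the same libraries. Of the 10 members 8 were higher in monocyte-like than microglia-like cells and 0 lower, beside 17.9% higher and 19.3% lower of 10229 genes tested. The median log2 fold change was 1.59 over the members and -0.25 over all genes tested.

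H2-D1 and H2-T22 led the monocyte difference, followed by Tap1 and H2-K1. H2-D1 stood at 4484 CPM in deficient, 3334 CPM in WT 1 and 3430.1 CPM in WT 2 monocyte-like cells, against 772, 752 and 831 CPM in microglia-like cells (log2 fold change 2.47, SE 0.22, adjusted p = 2.20e-28). H2-K1 stood at 1841, 1080 and 1012 CPM, against 408, 429 and 419 CPM (1.80, SE 0.20, adjusted p = 1.40e-18). Every monocyte value of these genes exceeds every microglial one. H2-T22 rose by 2.43 (SE 0.26, adjusted p = 1.07e-19), Tap1 by 1.98 (SE 0.25, adjusted p = 1.48e-14), Psmb8 by 1.59 (SE 0.19), Psmb9 by 1.58 (SE 0.20), H2-T23 by 1.29 (SE 0.21) and B2m by 0.99 (SE 0.22, adjusted p = 4.49e-05). The B2m call was lost without WT 1 (adjusted p = 0.375) or without WT 2 (adjusted p = 0.426). Tap2 at 0.08 (SE 0.24) and Tapbp at 0.18 (SE 0.21) did not pass. The sign of Tap2 turned with RLE scaling and a stricter cell filter, that of Tapbp without WT 1, and the sign of both after thinning, under other class rules and without WT 2.

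The monocyte-like cells of the 3 libraries were not alike in kind. Markers of classical monocytes (Ly6c2, Ccr2, Chil3, Vcan, F10) summed to 2657 CPM in deficient cells, against 5121 and 3795 CPM in WT, and those of nonclassical monocytes (Ace, Treml4, Cd300e, Ear2, Spn) to 1550.2 CPM, against 316 and 451 CPM. Median depth was 2408.5 UMIs in 20 deficient cells, against 7133 and 7530 UMIs in 54 and 40 WT cells. In these cells B2m stood at 8941 CPM, against 4066 and 4699.8 CPM, and Psmb9 at 374 CPM, against 169 and 218 CPM. No test was made between genotypes in this class, and the genotype and the make-up of the class cannot be told apart. The interferon list stood at 3156, 2123 and 4657 CPM in monocyte-like cells of the deficient library, WT 1 and WT 2, against 574, 527 and 492 CPM in microglia-like cells.

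Among other pathway genes in monocyte-like cells, 10 of 29 tested rose and 5 fell, beside 17.9% higher and 19.3% lower of 10229 genes tested. Without WT 1, 6 rose and 3 fell, without WT 2, 3 rose and 1 fell, and after thinning 1 rose and 4 fell. The nonclassical H2-Q7 rose by 3.33 (SE 0.33, adjusted p = 8.92e-23) and H2-Q6 by 2.04 (SE 0.66, adjusted p = 0.00687). Of the 60-base words in the last 400 bases of H2-Q6, 30.2% also occur in H2-Q7, while none of those of H2-Q7 occurs in another gene. Psme2, a subunit of the interferon-inducible proteasome activator PA28, rose by 1.55 (SE 0.20). The constitutive subunits Psmb5, Psmb6 and Psmb7 rose too, by 0.74, 0.61 and 0.89 (SE 0.21 each), as did Irf1 by 0.91 (SE 0.23). Irf8, a transcription factor that microglia need, fell by 1.34 (SE 0.21), and Rfx5, another RFX subunit, was represented by 1 UMI over all monocyte-like cells, against 14.4 CPM over all microglia-like cells. Nlrc5 had 2, 1 and 2 UMIs in the monocyte-like cells of the deficient library, WT 1 and WT 2. Beside the members, H2-DMb1 rose by 0.97 (SE 0.20) and Daxx by 1.41 (SE 0.33), while H2-Ob at -0.30 and Vps52 at 0.35 did not pass.

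Border macrophage-like cells, found by markers such as Mrc1, Pf4 and Cbr2, held more of the classical heavy chains than microglia-like cells. The test rests on WT 1 and WT 2, since 8 deficient cells were under the minimum of 10. Border cells held 2665 CPM (WT 1) and 2497 CPM (WT 2) of H2-D1, against 752 and 831 CPM in microglia-like cells (log2 fold change 1.83, SE 0.14, adjusted p = 0.00740). H2-K1 stood at 1118 and 1241 CPM, against 429 and 419 CPM (1.60, SE 0.12, adjusted p = 0.00740). The 8 deficient cells held 2591 CPM of H2-D1 and 1029 CPM of H2-K1, against 772 and 408 CPM in deficient microglia-like cells. The 2 members called higher stand beside 2.59% called higher of 11023 genes, and no member was called lower. The median log2 fold change was 0.53 over the members and -0.26 over all genes tested.

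The remaining members did not pass in border cells. Tap1 was at 1.18 (SE 0.34, adjusted p = 0.195), H2-T22 at 0.98 (SE 0.37, adjusted p = 0.298), H2-T23 at 0.56 (SE 0.37), B2m at 0.50 (SE 0.12, adjusted p = 0.129), Psmb9 at 0.43 (SE 0.24), Psmb8 at 0.40 (SE 0.17), Tapbp at -0.02 (SE 0.34) and Tap2 at -0.10 (SE 0.26). With Leiden clusters in place of marker counts, which brought in the deficient library, 6 members passed, adding H2-T22, H2-T23, Tap1 and Psmb8. In that fit 955 of all 10209 genes tested were called higher, against 285 of 11023 in the fit with marker counts. Of the other pathway genes H2-Q4 rose by 1.93 (SE 0.26, adjusted p = 0.0334) and Irf8 fell by 1.04 (SE 0.15, adjusted p = 0.0408). H2-DMb1, the class II gene beside Psmb9, rose by 1.41 (SE 0.22, adjusted p = 0.0441). Irf1 at 0.65 (SE 0.29), Nlrc5 at 3.02 (SE 1.80), Psmb5 at -0.71, Psmb6 at -0.20 and Psmb7 at -0.34 did not pass. The interferon list stood at 1829 and 1332 CPM in WT border cells, against 527 and 492 CPM in WT microglia-like cells. The immediate early genes stood at 60973 and 48459 CPM, against 27200 and 18926 CPM, and the part of both was not tested.

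Neutrophil-like cells differed from microglia-like cells in the balance of the heavy chains. The neutrophil markers took 480268 CPM in the deficient library, 462584 CPM in WT 1 and 494994 CPM in WT 2, which lowers every other gene in plain CPM, so folds depend on the scaling. The ratio of H2-D1 to H2-K1 UMIs within the same cells is free of scale. It was 6.88 in deficient, 6.07 in WT 1 and 5.62 in WT 2 neutrophil-like cells, against 1.89, 1.75 and 1.98 in microglia-like cells. All neutrophil ratios exceed all microglial ones, and the lowest neutrophil interval (4.05 to 12.4 in the deficient library, exact 95%) lies above the highest microglial one (1.92 to 2.04 in WT 2). Monocyte-like cells lay between, at 2.44, 3.09 and 3.39, and border macrophage-like cells at 2.52, 2.38 and 2.01.

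H2-D1 was higher in neutrophil-like cells with either scaling, with 2270.4, 1257 and 971 CPM, against 772, 752 and 831 CPM. Its log2 fold change was 2.21 (SE 0.38, adjusted p = 4.13e-08) with TMM scaling and 1.49 (adjusted p = 0.000314) with RLE scaling. Psmb9 rose by 1.48 (SE 0.20, adjusted p = 1.06e-12) with TMM and by 0.78 (adjusted p = 0.000239) with RLE, with 124, 91.1 and 74.7 CPM, against 103, 84.8 and 86.0 CPM, so plain CPM overlap. H2-T23 passed with TMM only (0.61, SE 0.20, adjusted p = 0.00641) and was at -0.08 with RLE (adjusted p = 0.748). Tapbp was lower with RLE only (-1.05, adjusted p = 2.54e-05, against -0.35 with TMM). With TMM 3 members were called higher and 0 lower, beside 24.9% higher and 29.6% lower of 10208 genes, and with RLE 2 were higher and 1 lower, beside 15.0% and 51.8%. The median over all genes was -0.28 with TMM and -0.97 with RLE, and over the members 0.44 and -0.26. H2-K1, B2m, H2-T22, Tap1, Tap2 and Psmb8 did not pass and changed sign between the scalings. Without WT 1, Psmb9 (adjusted p = 0.141) and H2-T23 (adjusted p = 0.592) lost their calls, and without WT 2 H2-T23 did (adjusted p = 0.668). The H2-T23 call was also lost with no filter on low counts and with a stricter cell filter. H2-T22 and Tap1 had 0 UMIs in the 17 deficient neutrophil-like cells, where the limit of 3 counts set for a count of 0 corresponds to 61.9 CPM and the exact 95% Poisson interval reaches 76.1 CPM.

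Among other pathway genes in neutrophil-like cells, 7 of 29 tested rose and 9 fell with TMM scaling, and 4 rose and 16 fell with RLE. Over all 10208 genes tested, 24.9% were higher and 29.6% lower with TMM, and 15.0% and 51.8% with RLE. The pathway counts are thus near the share of all genes. Without WT 1, 1 pathway gene rose and 4 fell, and without WT 2, 2 rose and 6 fell. With a stricter cell filter 2 rose and 9 fell. After thinning 1 rose and 19 fell, beside 669 higher and 5099 lower of 8244 genes tested. H2-Q10, a class I-like gene known for its secreted product, rose by 5.21 (SE 0.27, adjusted p = 8.27e-83), with 165, 98.8 and 51.2 CPM, against 4.89, 6.85 and 5.49 CPM in microglia-like cells, and its 3′ end shared no 60-base word with other genes. Irf8 fell by 3.17 (SE 0.36), H2-M3, which presents formylated peptides, by 2.38 (SE 0.47), and Calr, the chaperone calreticulin, by 1.75 (SE 0.34). Mr1, which presents vitamin B metabolites, had 0 UMIs in 2056180 UMIs of neutrophil-like cells, against 12.1 CPM in microglia-like cells. Rfx5 had 2 UMIs there. With TMM, the constitutive subunits Psmb5 and Psmb7 rose by 1.22 (SE 0.20) and 0.88 (SE 0.20), and Psmb6 was at 0.35 (SE 0.21) and Irf1 at -0.42 (SE 0.27). The Psmb5 and Psmb7 calls were lost with a stricter cell filter, with no filter on low counts, without WT 1 and without WT 2. With RLE, Psmb7 lost its call and Irf1 was called lower. After thinning, Psmb6, Psmb7 and Irf1 were called lower and Psmb5 was not called. Nlrc5 had 0, 4 and 3 UMIs in the deficient library, WT 1 and WT 2. Beside the members, H2-DMb1 fell by 2.58 (SE 0.31) and H2-Ob by 3.15 (SE 0.74).

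**Figure D4:**
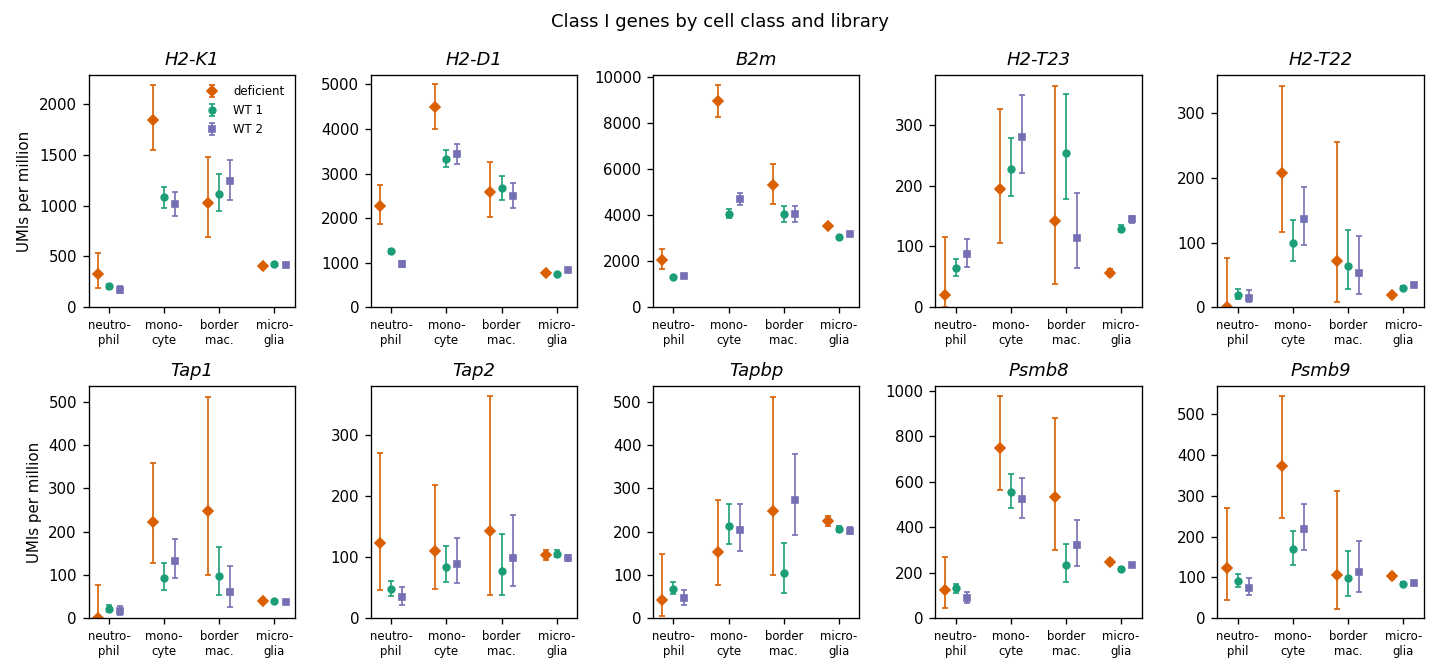
CPM of each class I gene in neutrophil-like, monocyte-like, border macrophage-like and microglia-like cells of the deficient library, WT 1 and WT 2, with exact 95% Poisson intervals of counting error. H2-D1 and H2-K1 are higher in monocyte-like and border cells than in microglia-like cells in all 3 libraries, and intervals are wide where a library has few cells, such as the 8 deficient border cells.

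**Figure D5:**
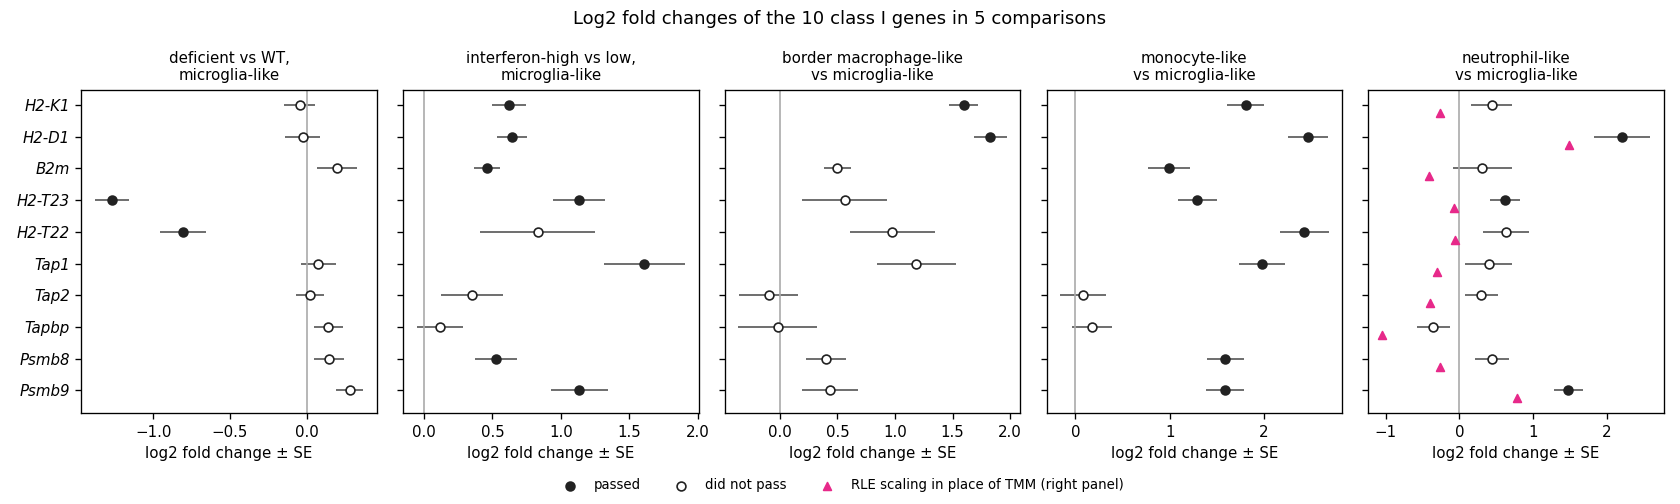
Log2 fold change and SE of the 10 class I genes in 5 comparisons, filled where the adjusted p was under 0.05 with TMM scaling; triangles in the right panel give RLE scaling. The monocyte panel holds 8 filled points, the interferon panel 7, the border panel 2 and the genotype panel 2, both below 0.

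Tap2 and Tapbp were called in none of the 5 comparisons as fitted with TMM scaling, with log2 fold changes of -0.10 to 0.35 for Tap2 and -0.35 to 0.18 for Tapbp, although Tapbp was lower in neutrophil-like cells under RLE. H2-D1 was called in 4 of the 5, the exception being the genotype. The comparisons with microglia-like cells share those cells, so their agreement is not independent.

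Over 15 sums of library by class (interferon-low and interferon-high microglia-like, border, monocyte-like and neutrophil-like cells), the summed 10 genes were closest to H2-K1 among the members (Pearson r of log2(CPM + 1) 0.97), then B2m (0.94) and Psmb8 (0.93), and furthest from Tap2 (0.56). Among 5611 genes outside the class I and interferon lists, the 5 with the most similar pattern were Rps21 (0.92), Ctnna1 (0.91), Epsti1 (0.90), Rps14 (0.90) and Rps27rt (0.89). Rps21 and Rps14 encode ribosomal proteins and Ctnna1 encodes alpha-catenin. These sums share libraries, depth and classes, so the correlations are descriptions without a test. Each member is also part of the summed 10 genes, of which B2m alone gave 60.4% to 64.2% in microglia-like cells. The correlations of abundant members with the sum are thus high in part by construction.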

How the data were processed

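The authors deposited 1 table of raw UMI counts per library, genes by cell barcodes, made from 10x 3′ kit libraries, per the labels' protocols. The submitters' processing notes name the tools Cell Ranger 3.0 and Seurat 2.2 and the build mm10. Other steps are not stated there. Total UMIs in the tables were 6616662 (deficient), 16230216 (WT 1) and 17293844 (WT 2).

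A cell entered with 500 UMIs and 200 genes or more, unless mitochondrial UMIs exceeded 10%. A cell was called by its share of UMIs in a class's markers and the number of markers found: neutrophil-like at 5% and 4 markers, monocyte-like at 0.2% and 3, border macrophage-like at 0.1% and 2, microglia-like at 2% and 5. These thresholds were set after seeing the data, and 5 markers also found in other classes were dropped (Stab1, Apoe, Csf3r, Nr4a1, F13a1). Cells passing for more than 1 class (1 deficient, 27 WT 1, 21 WT 2) were left out. No doublet caller was run, and the share of doublets was not estimated. Cells passing for none (35, 69 and 59) were left out too.

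UMIs were summed per library and class, with at least 10 cells a sum. After edgeR's filterByExpr, the genes common to the 3 tables went into the quasi-likelihood test of edgeR 4.0.16 with TMM scaling in R 4.3.3, with Benjamini-Hochberg adjustment over all genes tested and a threshold of 0.05. Class and interferon comparisons had library as a covariate. Genotype comparisons had none and 1 residual degree of freedom. The border and interaction fits also had 1, and the neutrophil, monocyte and interferon fits had 2. The test therefore draws on dispersion shared across genes, and a p-value does not rest on the spread of its own gene alone. CPM in the text are plain UMIs per 1000000 UMIs of the summed cells, while fold changes come from the fits. In sums of cells, fewer cells that express a gene and less RNA per cell cannot be told apart.

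The members, lists and alternatives were chosen with earlier results of these data known. Text names all 10 members; of other pathway genes the called ones, at most the 6 with the largest fold, with Psmb5, Psmb6, Psmb7, Nlrc5 and Irf1 throughout; adjoining class II region genes; and the 5 genes most like the members in pattern. Some genes that enter the counts are not reported here by name. Genes beyond H2-T22 were named after their values were seen. Of 11869 symbols, 98.9% had 1 position. Alternatives covered scaling, filters, depth, DESeq2 1.42.0, class rules (Leiden clusters from scanpy 1.11.5), interferon bounds and lists, and each library left out. The fits were tested on simulated data.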

Additional observations from a re-analysis of the deposited data

How the results depend on the processing

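Under alternatives, 729 values were tallied, of members and of at most 6 called pathway genes per comparison. Of these, 575 were labelled the same and 51 changed sign. Among the 442 values of genes called as reported, 2 changed sign, both for H2-T23 in neutrophil-like cells. In fits with a test, the same meant the same direction and side of the threshold. In fits without a test it meant a shift smaller than the SE, and sign changes there were counted only for called genes. Psmb7, called higher in neutrophil-like cells, was outside the tally and was called lower after thinning. The cause of changes was not tested except where stated.

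Between genotypes in microglia-like cells, DESeq2 called 1 member lower and 504 genes. Thinning each cell to 1000 UMIs gave 0.011 for H2-K1, 0.046 for H2-D1, -0.084 for Tap1 and -0.10 for Tap2. Doubled class minima gave 0.071 for H2-K1 and 0.088 for H2-D1, and Leiden clusters 0.0031 for H2-D1. Over all retained cells 1 member was lower both after thinning (489 genes called) and with DESeq2 (510 genes).

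In neutrophil-like cells, RLE scaling called 1 member lower and gave -0.26 for H2-K1, -0.41 for B2m, -0.064 for H2-T22, -0.077 for H2-T23, -0.30 for Tap1, -0.40 for Tap2 and -0.26 for Psmb8. B2m was at -0.12 with no filter on low counts and at -0.15 with a stricter cell filter. Thinning called 1 member higher and 5 lower, beside 669 higher and 5099 lower of 8244 genes tested. It gave -0.64 for H2-K1, -1.06 for B2m, -0.64 for H2-T23, -0.55 for Tap1, -0.87 for Tap2 and -0.75 for Psmb8. The median log2 fold change after thinning was -0.64 over the members and -1.83 over all genes tested. Leaving out 1 library gave 1 to 4 members higher, 0 to 1 lower and 1809 to 5681 genes called, with 1809 without WT 1 and 2977 without WT 2. Doubled minima called 5 members higher, beside 2564 higher of 9923 genes tested. Leaving out the neutrophil markers with no TMM factor, chosen after seeing the data, called 1 member lower, beside 4924 lower of 10141 genes tested. It gave -0.079 for H2-K1, -0.14 for B2m, -0.16 for Tap1, -0.26 for Tap2 and -0.088 for Psmb8.

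In border macrophage-like cells, Tapbp was at 0.037 with RLE, and thinning gave -0.0035 for Psmb8 and -0.56 for Psmb9. Doubled minima called 4 members and 1381 genes, with 0.10 for Tap2 and 0.19 for Tapbp, and Leiden clusters, which add the deficient library, called 6 members and 1607 genes, with 0.055 for Tap2 and 0.14 for Tapbp.

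In monocyte-like cells, Tap2 was at -0.075 with RLE and -0.049 with a stricter cell filter. Thinning called 5 members higher and 1283 genes, with -0.48 for Tap2 and -0.27 for Tapbp. Leaving out 1 library gave 7 to 8 members higher and 1791 to 3835 genes called, -0.11 (without WT 2) to 0.010 for Tap2 and -0.16 (without WT 1) to 0.29 for Tapbp, with 1858 genes without WT 1 and 1791 without WT 2. Doubled minima gave -0.29 for Tap2 and -0.17 for Tapbp, and Leiden clusters -0.31 and -0.13.

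By interferon content, thinning called 0 members and 53 genes with edgeR, with -0.17 for Tap2. Leaving out 1 library gave 2 to 6 members higher and 58 to 92 genes called, both lowest without the deficient library, and -0.10 (without WT 2) to 0.22 for Tapbp. A bound of 6 UMIs called 1 member (Tap2 -0.016, Tapbp -0.22), the broad interferon list 3 (Tap2 -0.0020), and the list without its 3 most abundant genes 4 (Tapbp -0.030). A bound of 3 UMIs called 2 genes in the interaction, of which 0 were members.

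No paired analysis was possible because the deficient group has 1 library whose label carries no replicate number; this concerns the genotype, while class and interferon comparisons had library as a covariate. Genotype and border comparisons without a WT library are values with no test, and the border comparison as reported did not hold the deficient library. Depth limits the rare classes, where 8 to 54 monocyte-like and border macrophage-like cells stand behind a value.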
